A study of Mus musculus with 18 samples.

Results

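DN1d is 1 of 7 populations of mouse thymocytes profiled by RNA sequencing, and its 2 libraries, DN1d 1 and DN1d 2, were set against the 16 other libraries, 18 in all. The 2 DN1d libraries were taken by their labels, and the question was which transcripts stood apart in DN1d from every other population. The cells were thymocytes of C57BL/6 mice aged 10 postnatal days, with about 10000 sorted cells for each and 1 ng of amplified cDNA going into library preparation. The labels name no mutation, transgene or treatment in any group. The other populations were DN1ab (n = 2), DN1e (n = 3), DN1 ckit+ (n = 3), DN2 (n = 3), DN4 (n = 3) and ImmV2 (n = 2). The design text calls the replicates biological, but the labels tie none to its own animal, so p-values reflect only how far these libraries scatter, some of it perhaps technical. The sources used here give neither the sort gates nor the meaning of ImmV2.

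Double-negative (DN) thymocytes carry neither CD4 nor CD8 and pass through numbered stages on the way to becoming T cells. The earliest stage, DN1, is conventionally marked by CD44 without CD25 and is divided by CD24 and the stem cell factor receptor Kit into subsets with letters, of which DN1a and DN1b have the strongest T cell potential. Gamma delta T cells assemble their receptor from rearranged gamma and delta chain segments, and those that make IL-17 depend in mice on the HMG-box factor Sox13 and the bZIP factor Maf. Sox13, Maf and the delta chain variable segment Trdv4 were the markers given for DN1d.

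The receptor segments that this comparison turns on are printed first, since a variable segment is read out by its own sequence. They are Trdv4 and the gamma chain variable segments that were above 100 FPKM in both DN1d libraries, Tcrg-V4 and Trgv2. The last 240 coding bases of each are from the GENCODE M21 transcripts on GRCm38, a later build than the mm8 named for the deposited values. Capitals mark the codon of the conserved cysteine at which the junction with the next segment begins.
Trdv4: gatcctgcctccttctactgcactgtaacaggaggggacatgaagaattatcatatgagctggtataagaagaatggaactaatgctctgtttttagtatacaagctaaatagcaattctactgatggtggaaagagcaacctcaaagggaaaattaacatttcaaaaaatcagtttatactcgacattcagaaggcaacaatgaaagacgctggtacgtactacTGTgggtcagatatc
Tcrg-V4: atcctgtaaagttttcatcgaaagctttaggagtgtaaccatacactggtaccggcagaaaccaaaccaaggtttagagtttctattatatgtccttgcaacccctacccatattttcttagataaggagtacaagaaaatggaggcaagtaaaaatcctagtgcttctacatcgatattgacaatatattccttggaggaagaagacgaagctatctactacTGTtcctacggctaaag
Trgv2: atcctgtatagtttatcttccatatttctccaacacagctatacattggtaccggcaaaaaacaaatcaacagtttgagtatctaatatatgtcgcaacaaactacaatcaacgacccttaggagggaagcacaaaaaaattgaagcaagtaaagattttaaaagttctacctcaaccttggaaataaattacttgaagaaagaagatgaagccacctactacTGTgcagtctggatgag
These bases lie within the variable exon, at chr14:54075276-54075515 on the plus strand for Trdv4, chr13:19185267-19185506 on the plus strand for Tcrg-V4 and chr13:19336573-19336812 on the minus strand for Trgv2. Over the whole coding sequence, Trdv4 was 53.3% to 56.7% identical to the other segments with Trdv names, Trdv1, Trdv2-1, Trdv2-2 and Trdv5. The longest run of bases it shared with any of them was 8. Trgv2 was 95.7% identical to Tcrg-V1 and 94.6% to Tcrg-V3, with shared runs of 74 and 62 bases, so its reads could be split between copies and its values are uncertain. Tcrg-V4 shared no run longer than 14 bases with another gamma variable segment.

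The values are FPKM, fragments scaled to transcript length and library size, which the authors deposited on a log2 scale for 34082 gene symbols. The lowest value, 0.01 FPKM, was listed for 47.7% and 49.8% of rows in the 2 DN1d libraries, against 34.5% to 53.6% in the 16 others. Genes that every cell uses were often among these rows, so 0.01 FPKM is reported as a listed floor value and not as absence, and levels are given per library. Of the genes with at least 10 FPKM in 1 DN1d library, 55.8% to 55.9% reached 1 FPKM in the other, against 50.6% to 58.8% that did so in a library of another population. Agreement within DN1d was thus no closer than the better matches outside it. Spearman correlations were taken across the genes reaching 1 FPKM in 2 or more libraries, as a description over genes, which are not independent replicates. The correlation of the DN1d libraries was 0.251. That of DN1d 1 with the others was 0.214 to 0.276, and that of DN1d 2 was 0.185 to 0.255. Identical high values recur between libraries, as for Tcrg-V4 below, so high levels appear to sit on a scale shared between libraries. No counts were given, so depth is unknown and no counting interval can be stated.

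Of the markers, Trdv4 alone passed the test over all genes. It was at 19.6 and 32.8 FPKM in DN1d 1 and DN1d 2, against a lowest value of 0.01, a median of 0.01 and a highest value of 0.705 FPKM in the 16 others. Both DN1d libraries were high, and 13 of the others were listed at the lowest value. On the log2(FPKM + 1) scale, which understates the change of low genes, DN1d exceeded the equally weighted mean of the 6 other populations by 4.60 ± 0.45 (SE; limma, Benjamini-Hochberg adjusted p = 9.36e-05 over all 24525 genes tested). Against each population in turn the largest of the 6 p-values was 0.0061 after adjustment (limma). That second call held in 17 of 23 alternatives, and with the values as deposited the adjusted p was 1 (limma). Trdv4 reached 1 FPKM in no library outside DN1d, so it entered the test through the DN1d libraries alone.

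Maf was at 56.1 and 75.6 FPKM in DN1d, against a lowest value of 0.01, a median of 1.32 and a highest value of 40.7 FPKM in the 16 others. The groups did not overlap, and the nearest libraries were ImmV2 2 at 40.7, ImmV2 1 at 39.0 and DN1e 1 at 36.0 FPKM. The log2 difference from the mean of the other populations was 3.99 ± 1.03 and did not pass over all genes (adjusted p = 0.144, limma). With a pseudocount of 5 FPKM, or without DN1e 3, the limma test passed (adjusted p = 0.0407 and 0.0278).

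Sox13 was at 14 and 76.3 FPKM in DN1d, against a lowest value of 0.01, a median of 5.67 and a highest value of 18.8 FPKM in the 16 others. DN1d 2 was above every other library, while DN1d 1 lay under both DN1ab libraries, at 18.8 and 16.4 FPKM. The log2 difference was 2.71 ± 1.04 and did not pass (adjusted p = 0.487, limma).

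**Figure D1:**
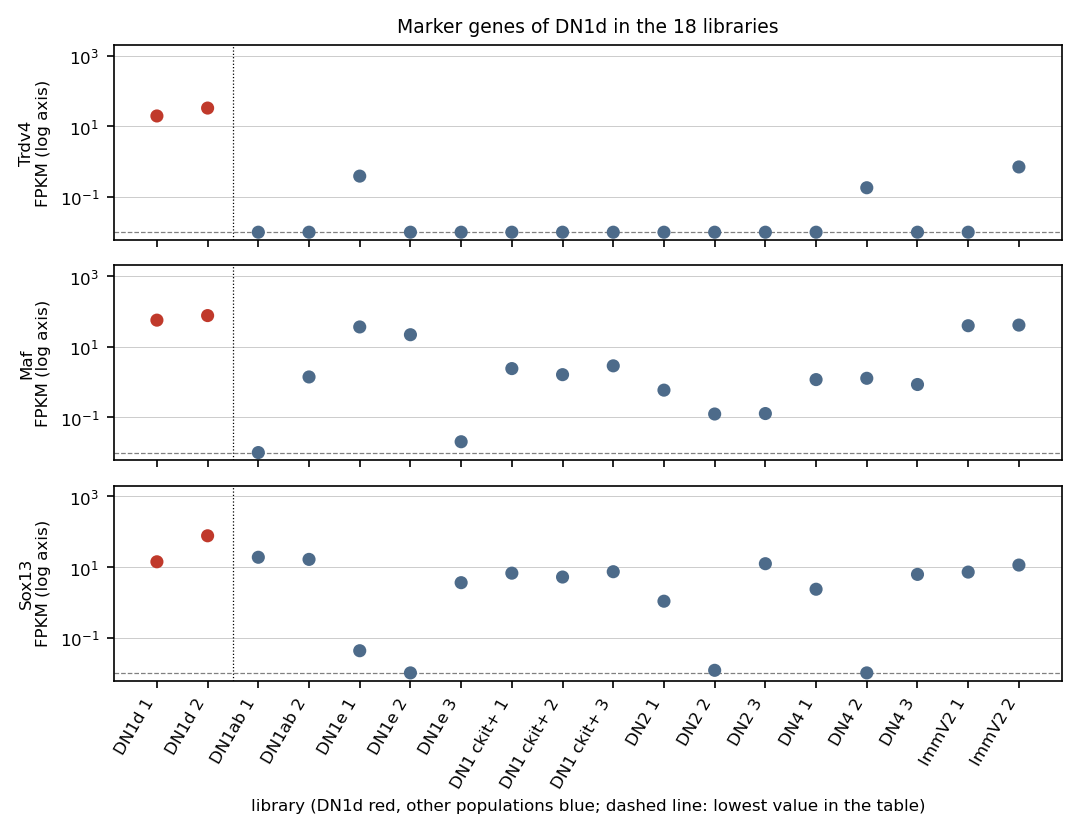
FPKM of Trdv4, Maf and Sox13 on a log axis in each of the 18 libraries, DN1d in red at the left and the other populations in blue; the dashed line is the lowest value, 0.01 FPKM. Both DN1d points lie above every other point for Trdv4 and Maf, while for Sox13 DN1d 1, at 14 FPKM, lies under the DN1ab libraries.

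Among all genes, more were called higher in DN1d than lower, and the same held when each other population took its place. At an adjusted p under 0.05 and a log2 difference of at least 1, 116 genes, 0.473% of those tested, were higher in DN1d than in the mean of the 6 other populations, and 3 genes, 0.0122%, were lower (limma). At an unadjusted p under 0.05 the numbers were 1452 higher and 297 lower. With the values as deposited, 26 genes were called higher and 15 lower. The median difference over all genes was -0.25 on the log2 scale. In 97 of the 116 both DN1d values lay above all 16 others, against 283 of all genes tested, or 1.15%. For 2 of the 3 lower genes both values lay below the others, against 71 of all genes, or 0.29%. The 116 genes had median levels of 19.6 and 18.2 FPKM in the DN1d libraries, and the median of their highest value outside DN1d was 2.55 FPKM. Of the genes tested, 37 had passed the filter of 1 FPKM in 2 libraries through DN1d alone and so had to be high in it, and 28 of them were among the 116. Leaving out either DN1d library changed which genes were called. The 28 genes that had passed the filter through DN1d alone could then not be tested, so the filter itself limits the overlap with the 116.

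The same contrast made for each of the other populations called between 8 genes higher, for DN2, and 294, for DN1e. DN1ab, also with 2 libraries, had 108 higher and 9 lower. ImmV2, with 2 libraries as well, had 94 higher and 3 lower. These contrasts share libraries, and the difference between their counts was not tested.

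**Figure D2:**
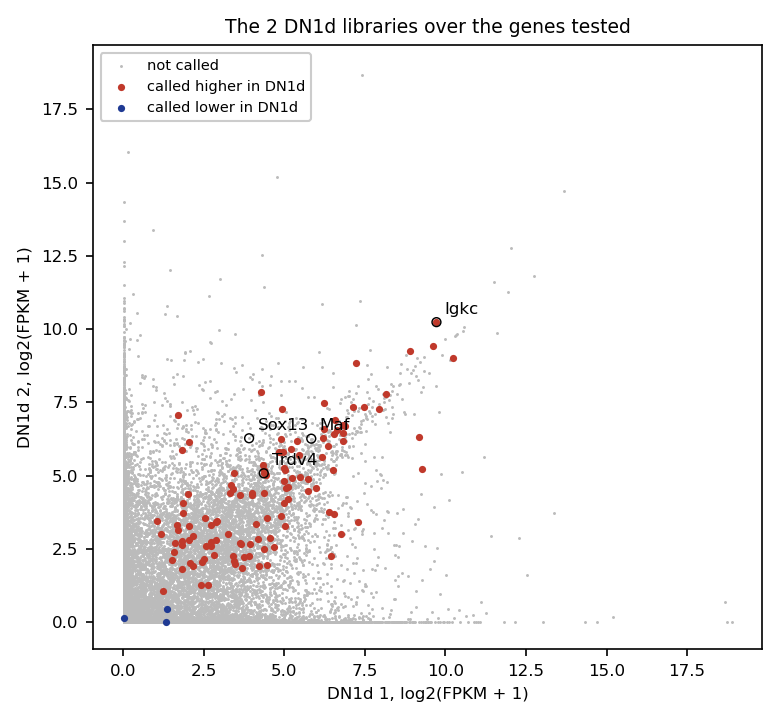
Log2(FPKM + 1) of DN1d 1 on the x axis and DN1d 2 on the y axis for the 24525 genes tested, with the 116 genes called higher in DN1d in red, the 3 called lower in blue and the remaining genes in grey. Called genes lie where both libraries are high, among many grey genes along the axes that are high in 1 DN1d library alone; Trdv4, Maf, Sox13 and Igkc are ringed.

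In a stricter test, 21 genes, 0.0856% of those tested, were higher in DN1d than in each of the 6 other populations (adjusted largest p under 0.05, limma). None, 0%, was lower than in each, with 9 lower and 228 higher at an unadjusted largest p under 0.05. All 21 were among the 116, and 16 of the 21 had passed the filter through DN1d alone. With no filter on low values, over 33605 genes, the count was 35 and held all 21, and it was 2 when 4 libraries had to reach 1 FPKM. The count also depended on single libraries. It was 2 without DN1ab 1, without DN1ab 2 or without ImmV2 1, 4 without ImmV2 2 and 13 without DN2 3. It was 0 without ImmV2 1 and DN2 1 together, and 83 without DN1d 1 or 73 without DN1d 2. The named genes of this set were Trdv4, Olfr794, Chrnb1, Kcnj10, Ighg2b, Fpr-rs4, Depdc7, C2cd4a, Fam115e, Zfa, Rpl9-ps1 and Pdc; Actc1 and Aipl1, with RIKEN and Gm names, made up the rest. All of the named genes but Chrnb1, Zfa and Rpl9-ps1 had passed the filter through DN1d alone, so their p-values are no independent support. The strict call of C2cd4a held in 4 of 23 alternatives and that of Rpl9-ps1 in 6 of 26. No functional theme was tested.

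Olfr794, an olfactory receptor gene, had the smallest p of these. It was at 31.0 and 26.9 FPKM in DN1d, against a lowest value and a median of 0.01 and a highest value of 0.0331 FPKM in the 16 others. The 2 DN1d libraries were alike and nothing else came near (log2 difference 4.89 ± 0.40, adjusted p = 1.15e-05, limma). Olfactory receptors form a large family of related genes, so reads could be split among them.

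Chrnb1, the beta subunit of the muscle nicotinic acetylcholine receptor, was at 74.0 and 178 FPKM in DN1d, against a lowest value and a median of 0.01 and a highest value of 2.72 FPKM in the others. Its log2 difference was 6.71 ± 0.65 (adjusted p = 9.36e-05, limma), and it was high in both DN1d libraries only. Kcnj10, an inwardly rectifying potassium channel best known from glia, was at 33.5 and 17.2 FPKM in DN1d, against 0.01 to 0.624 FPKM with a median of 0.0265 in the others (log2 difference 4.51 ± 0.46, adjusted p = 0.000102, limma). Pdc, phosducin, a photoreceptor protein that binds G protein subunits, was at 14.2 and 5.31 FPKM in DN1d, against 0.01 to 0.617 FPKM with a median of 0.01 in the others. It had the smallest difference of the named genes in this set for which one is given, at 3.23 ± 0.39 (adjusted p = 0.000359, limma).

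Fpr-rs4, a member of the formyl peptide receptor family, was at 82.0 and 12.6 FPKM in DN1d, against a highest value of 0.374 FPKM in the others (log2 difference 4.94 ± 0.58, adjusted p = 0.000326, limma). C2cd4a, named for its C2 domain, was at 107 and 6.94 FPKM in DN1d, and all 16 others were listed at the lowest value, so no difference is given. These were the named genes of the set with the widest gap between the DN1d libraries, although both libraries lay above all others. Depdc7, a DEP-domain protein gene, was at 9.93 and 32.9 FPKM in DN1d, against a highest value of 0.376 FPKM in the others. Fam115e was at 9.10 and 24.8 FPKM in DN1d, against a highest value of 0.329 FPKM in the others. For Depdc7 and Fam115e the adjusted p against the mean was 0.000131 and 0.000102 (limma).

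Zfa, an autosomal zinc finger gene closely related to Zfx, was at 117 and 101 FPKM in DN1d, against a lowest value of 0.01, a median of 0.0159 and a highest value of 3.33 FPKM in the others. Rpl9-ps1, by its name a pseudogene of the ribosomal protein gene Rpl9, is classed as protein coding in GENCODE M21. Its level was 70.5 and 48.7 FPKM in DN1d, against 0.01 to 4.64 FPKM with a median of 0.0247 in the others. Both were clearly apart (adjusted p = 0.000248 and 0.000326, limma), and both have near-identical copies with which reads could be shared, so their levels are uncertain. Outside the stricter set, Tnfrsf12a, the receptor for the cytokine TWEAK, was at 27.4 and 54.5 FPKM in DN1d, against a highest value of 2.54 FPKM in the others. Ccdc97, a coiled-coil protein gene, was at 242 and 152.96 FPKM in DN1d, against a highest value of 19.5 FPKM in the others. Neither overlapped with the other libraries (adjusted p = 0.00244 and 0.0166, limma). Ccdc97 no longer passed without DN1d 1 (adjusted p = 0.104, limma) or without DN1d 2 (adjusted p = 0.0714).

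**Figure D3:**
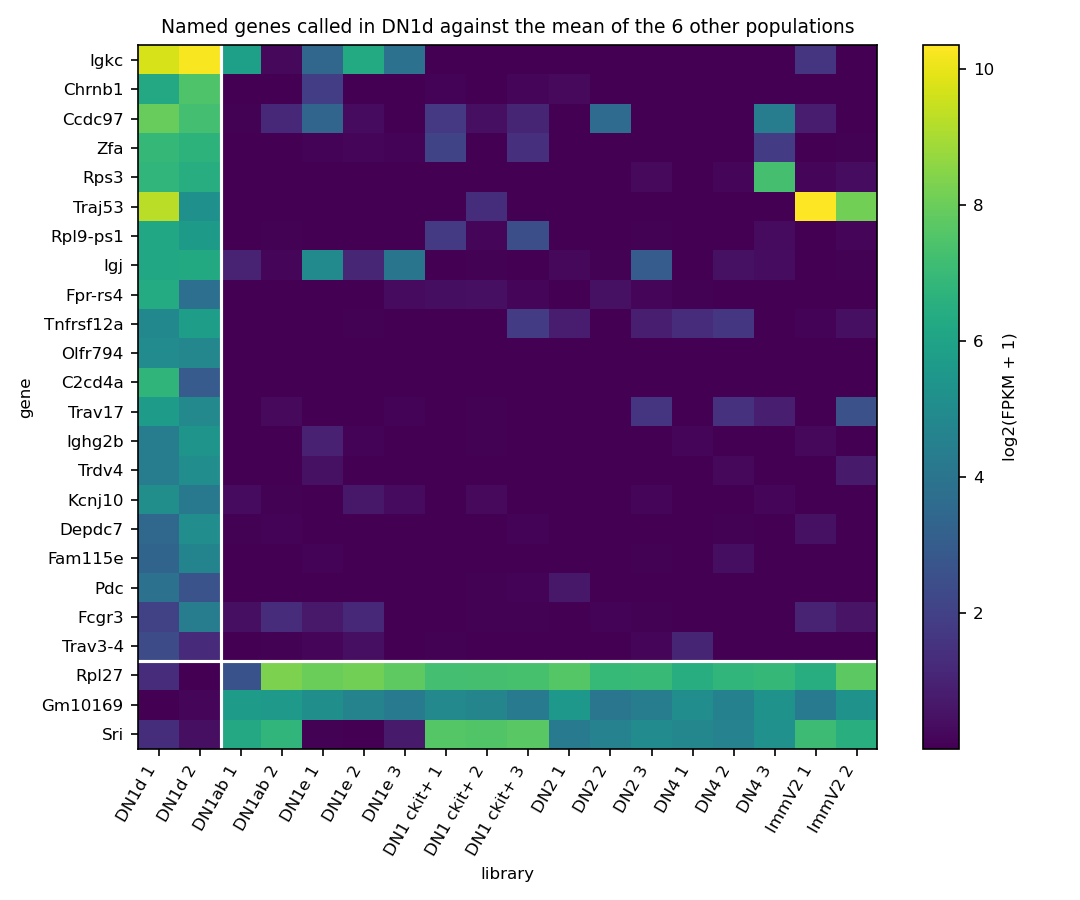
Log2(FPKM + 1), by colour, of the genes named by the rule or in the text that were called against the mean of the other populations, in the 18 libraries with DN1d at the left; genes above the white line were higher in DN1d and those below it lower. Most upper rows are bright in the DN1d columns and dark elsewhere, with Rps3 also bright in DN4 3, Traj53 in both ImmV2 libraries, and Igkc and Igj visible in DN1e and DN1ab 1.

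Immunoglobulin genes were among those higher in DN1d, and Igkc was the most abundant of all the named genes called. Igkc, the kappa light chain constant region, was at 843 and 1205 FPKM in DN1d, against a lowest value and a median of 0.01 and a highest value of 78.2 FPKM in the 16 others. Both DN1d libraries were more than 10 times above the highest other, DN1e 2, and 10 others were listed at the lowest value (log2 difference 8.57 ± 1.10, adjusted p = 0.000829, limma). Ighg2b, a heavy chain constant region of IgG, was at 19.4 and 40.4 FPKM in DN1d, against a highest value of 0.936 FPKM in the others (log2 difference 4.75 ± 0.48, adjusted p = 9.85e-05, limma). Igj, the joining chain of polymeric antibodies, was at 72.2 and 77.5 FPKM in DN1d, against a median of 0.154 and a highest value of 28.9 FPKM in the others (log2 difference 5.34 ± 0.96, adjusted p = 0.0136, limma). Igj did not pass without DN1d 1 (adjusted p = 0.0612, limma) or without DN1d 2 (adjusted p = 0.0757).

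The B cell list, of which 15 of 20 members were tested, had 2 members higher in DN1d, Igkc and Igj, against 0.473% of all genes, and 0 lower, and a median difference of 0.73, against -0.25 over all genes. Its other tested members did not pass. Cd79a, the immunoglobulin alpha signalling chain, was listed at the lowest value in DN1d 1 and was at 27.0 FPKM in DN1d 2, against a highest value of 81.2 FPKM in DN1ab 2. The summed level of 6 defining B cell markers was 15.2 and 51.0 FPKM in DN1d, against a lowest sum of 1.06, a median of 8.96 and a highest of 92.0 FPKM in the others. Only DN1ab 2 exceeded both DN1d libraries, and 2 of the 6 markers were at the lowest value in DN1d 1 and 0 in DN1d 2. Leaving the immunoglobulin genes Igkc, Igj and Ighm out of the list, the remaining 17 members summed to 45.0 and 104 FPKM in DN1d, against 5.93 to 128 FPKM in the others. The part of B lineage cells in the immunoglobulin levels was not tested. In sorted bulk samples fewer cells of a type and less RNA per cell cannot be told apart.

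Markers of the remaining cell types did not all move with DN1d. The 7 myeloid markers summed to 102 and 22 FPKM in DN1d, against 1.85 to 1236 FPKM with a median of 75.5 in the others, and Tyrobp was at 0.01 FPKM in both DN1d libraries. In the myeloid list, 1 of 18 tested members was higher, against 0.473% of all genes. This was Fcgr3, a low-affinity receptor for IgG. Fcgr3 was at 3.04 and 19.6 FPKM in DN1d, against a highest value of 1.48 FPKM in the others (adjusted p = 0.0411, limma), and it lost its call in 16 of 27 alternatives, most of all without DN1d 2 (adjusted p = 0.281) among the libraries left out. The 4 natural killer and innate lymphoid markers summed to 40.3 and 17.3 FPKM in DN1d, against 1.58 to 140 FPKM in the others, with Ncr1 at the lowest value in both. The 4 erythroid markers summed to 18 and 0.249 FPKM in DN1d, against 0.614 to 49.6 FPKM, with Hba-a1 at the lowest value in both. The wider erythroid list summed to 1499 and 987 FPKM in DN1d, against 0.757 to 2300.3 FPKM with a median of 36.6 in the others, nearly all of it from Gata1, a transcription factor of red cell precursors named after its values were seen. Gata1 was at 1479 and 984 FPKM in DN1d, against a median of 0.251 and a highest value of 2217 FPKM in DN1ab 2 (log2 difference 7.09 ± 2.67, adjusted p = 0.473, limma). The 6 thymic epithelium markers summed to 8.15 and 15.0 FPKM in DN1d, against 0.122 to 34.7 FPKM, with Foxn1 and Krt5 at the lowest value in both. The 4 dendritic markers summed to 0.694 and 6.05 FPKM in DN1d, against 0.717 to 128 FPKM with a median of 14.7 in the others. Each of these marker and list sums lay within or below the range of the other libraries in both DN1d libraries, and their part in the calls was not tested.

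Several genes of the T cell receptor complex were at high levels in both DN1d libraries, while others were at the listed floor. The 5 T cell markers summed to 311 and 325 FPKM in DN1d, against a lowest sum of 30.7, a median of 119 and a highest of 423 FPKM in the others, 2 of which exceeded both DN1d libraries. Cd3e, which encodes the CD3 epsilon chain, was at 117 and 51.6 FPKM in DN1d, against 0.01 to 211 FPKM with a median of 9.09 in the others (adjusted p = 0.296, limma). Bcl11b, whose product is required for commitment to the T lineage, was at 22.2 and 61.9 FPKM in DN1d, against 0.0277 to 36.6 FPKM with a median of 10.1 in the others. Its log2 difference was 2.61 ± 0.79 (adjusted p = 0.266, limma). Over all genes, 0.473% were called higher and 0.0122% lower, and the median difference was -0.25. Of the 22 genes of the receptor complex and its proximal signalling, all tested, 0 were called, 11 had a positive difference and the median was 0.13. Of these, 6 were at the listed floor in both DN1d libraries, Cd247, Lcp2, Fyn, Themis, Plcg1 and Grap2, named after their values were seen.

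RNA levels of the genes whose proteins define DN1 at the cell surface varied between the DN1d libraries or were at the listed floor, which is not absence. Cd44 was listed at 0.01 FPKM in both DN1d libraries, and also in 7 of the 16 others, whose highest value was 45.0 FPKM. Cd24a was listed at the lowest value in DN1d 1 and was at 2.26 FPKM in DN1d 2, against a median of 22.1 and a highest value of 468 FPKM in the others, 7 of which were at the lowest value. Il2ra, which encodes CD25, was at 0.988 and 132 FPKM in DN1d, so the 2 libraries lay at opposite ends of the 0.102 to 82.7 FPKM of the others or beyond. Kit was at 0.0400 and 8.03 FPKM in DN1d, against 0.527 to 141 FPKM with a median of 15.6 in the others. None of these 4 genes passed the test (adjusted p = 0.856, 0.856, 0.856 and 0.692 for Cd44, Cd24a, Il2ra and Kit, limma).

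The gamma chain variable segments differed in level within DN1d. Tcrg-V4 was at 13163 and 26616 FPKM in DN1d, against a lowest value of 0.01, a median of 25.5 and a highest value of 13163 FPKM in the others. DN2 1 had the same value as DN1d 1, and the next library, DN1 ckit+ 3, was at 90.7 FPKM. The log2 difference of 9.69 ± 2.26 did not pass over all genes (adjusted p = 0.0904, limma), but it passed in 4 of 27 alternatives. The second segment, Trgv2, was at 117 and 204 FPKM in DN1d, against 0.01 to 657 FPKM with a median of 8.43 in the others. ImmV2 1 and ImmV2 2, at 122 and 657 FPKM, were above DN1d 1, and every library outside ImmV2 was under both DN1d libraries (log2 difference 3.95 ± 0.98, adjusted p = 0.116, limma).

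The other gamma segments were moderate, or high in 1 DN1d library alone. Tcrg-V3 was at 15.0 and 7.47 FPKM and Tcrg-V6 at 3.50 and 10.4 FPKM in DN1d, with highest values elsewhere of 28.1 and 101 FPKM. Tcrg-V7 was at 11.4 FPKM in DN1d 1 and at the listed floor in DN1d 2, against a median of 316 and a highest value of 67026 FPKM in the others. Tcrg-V5 was listed at the lowest value in DN1d 1 and was at 1089 FPKM in DN1d 2, and the constant segment row Tcrg-C was at 675 FPKM in DN1d 1 and at the lowest value in DN1d 2. None passed, with adjusted p between 0.856 and 0.881 (limma), and the sign of the differences of Tcrg-C and Tcrg-V5 turned with 1 DN1d library left out.

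Of the delta variable segments with Trdv names, Trdv4 alone was above the lowest value in both DN1d libraries. Delta variable segments under other names were not examined. Trdv1, Trdv2-1 and Trdv5 were listed at the lowest value in both, against highest values elsewhere of 42.1, 76.5 and 2345 FPKM. Trdv2-2 was listed at the lowest value in DN1d 1 and was at 2.56 FPKM in DN1d 2, against a highest value of 6.31 FPKM in the others. Trdv5 reached 4.63 FPKM or more in every DN4 and ImmV2 library. Of the diversity and joining segments, chosen after their values were seen, Trdd1 was at 12.1 and 7.03 FPKM in DN1d, against a median of 0.01 and a highest value of 66.6 FPKM in the others. Trdj1 and Trdj2 were both at the listed floor in DN1d 1 and DN1d 2, with medians elsewhere of 1.18 and 226 FPKM.

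**Figure D4:**
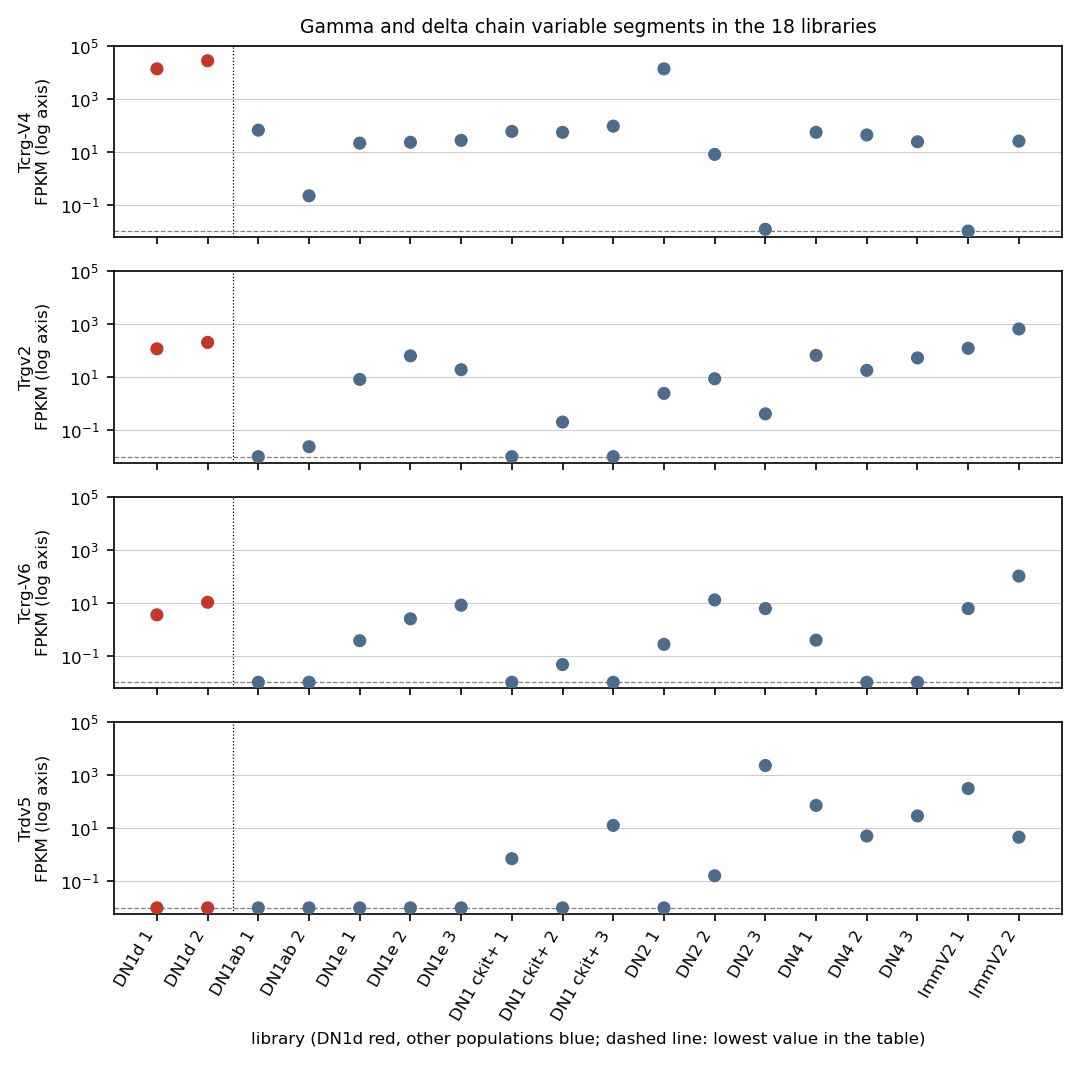
FPKM of the gamma chain variable segments Tcrg-V4, Trgv2 and Tcrg-V6 and the delta chain variable segment Trdv5 on a log axis in each of the 18 libraries, DN1d in red at the left and the other populations in blue; the dashed line is the lowest value, 0.01 FPKM. Tcrg-V4 is above 10000 FPKM in both DN1d libraries and in DN2 1 alone among the others, while Trdv5 is on the dashed line in both DN1d libraries.

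Alpha chain segments, named after their values were seen, were also among the 116. Alpha chain rearrangement is ordinarily a later event, at the double-positive stage. Trav17 was at 52.5 and 28.2 FPKM in DN1d, against a median of 0.0232 and a highest value of 4.88 FPKM in the others (log2 difference 4.83 ± 0.75, adjusted p = 0.0049, limma). Traj53 was at 618 and 36.0 FPKM in DN1d and overlapped with ImmV2, at 1294 and 279 FPKM, while 13 of the others were at the lowest value (adjusted p = 0.00815, limma, and 0.139 without DN1d 1). Trav3-4 was at 4.39 and 1.42 FPKM in DN1d, against a highest value of 1.10 FPKM in the others, and lost its call in 20 of 26 alternatives, with an adjusted p of 0.287 without DN1d 1. By GENCODE M21 class, 6 of the 116, or 5.17%, were receptor or immunoglobulin segments, against 0.803% of all genes tested. Protein-coding genes made up 58 of the 116, against 59.8% of all tested, and pseudogenes made up 13, or 11.2%, against 13.4%. Of the 116 symbols, 23 had no match, and 20996 of the 24525 tested symbols matched.

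No gene of the IL-17 gamma delta programme was called, Sox13 and Maf included. Of 21 listed, 18 were tested, and at a share of 0.473% called higher over all genes a count of 0 says nothing particular about the list. The median difference was 0.76, against -0.25 over all genes. Both DN1d values lay above the others for 1 member, Maf. Blk, a Src-family kinase of these cells, was at 0.0509 and 0.01 FPKM in DN1d, against a highest value of 31.8 FPKM in ImmV2 1. Il7r, the receptor for the survival cytokine IL-7, was at 9.26 and 22.7 FPKM in DN1d, against a median of 5.68 and a highest value of 144 FPKM in the others. Zbtb16, the factor PLZF of innate-like T cells, did not reach the filter and was at 0.01 FPKM in both DN1d libraries. Of 19 tested HMG-box genes none was called, with a median of 0.59. Sox4 was at 0.462 and 0.803 FPKM in DN1d, against 0.0596 to 1.90 FPKM in the others. Tcf7, which encodes TCF-1, was at 3.41 and 2.55 FPKM in DN1d, against a median of 4.74 FPKM in the others, and its relative Lef1 was at 0.01 FPKM in both DN1d libraries and in 8 of the others.

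Members of the T-lineage commitment list had differences of both signs, with a median of -0.89, and 0 of 14 were called, against 0.473% higher and 0.0122% lower over all genes. Gata3, which drives commitment, was at 1.03 and 1.30 FPKM in DN1d, against a lowest value of 0.01, a median of 70.7 and a highest value of 114 FPKM in the others. DN1e 1 was at 0.01 FPKM, the DN1ab libraries at 3.12 and 3.29, DN1e 2 at 6.97 and DN1 ckit+ 2 at 6.88 FPKM. Every remaining library outside DN1d was at 43.4 FPKM or more. Low Gata3 was thus not particular to DN1d (log2 difference -3.79 ± 1.27, adjusted p = 0.366, limma). Runx3, a factor of cytotoxic and innate lymphocytes, was at 120.5 and 15.5 FPKM in DN1d, against a median of 0.934 and a highest value of 13.0 FPKM in the others. Both values lay above all others, with a difference that did not pass (4.05 ± 1.19, adjusted p = 0.24, limma). Of the Id proteins, which block E proteins, Id3 was at 2.47 and 58.4 FPKM and Id2 at 6.50 and 17.3 FPKM in DN1d, with highest values elsewhere of 13.2 and 140 FPKM, and neither passed.

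Of 304 list members tested, 10, or 3.29%, were above all 16 other libraries in both DN1d libraries, against 1.15% of all genes. The lists were chosen with earlier results of these data known, and the 10 include the marker Maf and also Igkc and Igj. The higher share is therefore no independent support. Of the 10, those not yet described did not pass the test. Nr4a2, an immediate early gene of receptor signalling, was at 13.7 and 25.9 FPKM in DN1d, against a highest value of 4.27 FPKM in the others (adjusted p = 0.103, limma). Cd34, a stem and progenitor cell glycoprotein, was at 24.7 and 32.4 FPKM in DN1d, against a highest value of 21.1 FPKM in the others (adjusted p = 0.351, limma). In its list of early progenitor genes 0 of 20 tested were called, against 0.473% higher and 0.0122% lower over all genes. Of these 20, 6 had a positive difference and the median was -0.76, against -0.25 over all genes. Il18rap, an IL-18 receptor chain, was at 11.8 and 24.7 FPKM in DN1d, against a highest value of 9.53 FPKM, and Il17rc, an IL-17 receptor chain, was at 3.64 and 16.5 FPKM in DN1d, against a highest value of 2.75 FPKM. The endocytic receptor Ly75, from the epithelium and stroma list, was at 18 and 36.6 FPKM in DN1d, against a highest value of 10.3 FPKM in the others. The adjusted p of these last genes was 0.521, 0.221 and 0.336 (limma). Of the 19 lists, 16 held no called gene, which at these shares over all genes says nothing particular about them. The rest were the B cell, myeloid and all-cell lists.

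**Figure D5:**
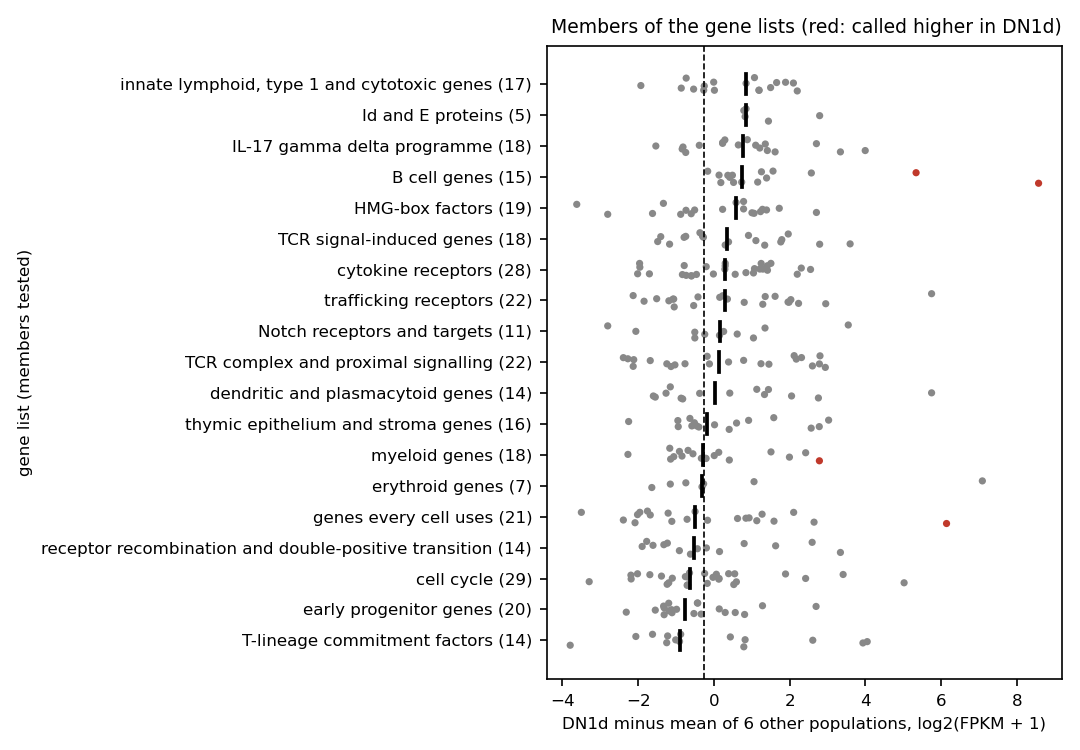
Difference of DN1d from the mean of the 6 other populations on the log2(FPKM + 1) scale for each tested member of the 19 gene lists, with the number tested in brackets, the short black line at the list's median and the dashed line at the median of all genes, -0.25. Called members, in red, are Igkc, Igj, Fcgr3 and Rps3, and list medians run between -0.89 and 0.85.

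The genes lower in DN1d were 3. Rpl27, a ribosomal protein gene, was at 1.49 FPKM in DN1d 1 and at the lowest value in DN1d 2, against a lowest value of 5.10, a median of 155 and a highest value of 315 FPKM in the others. Only DN1ab 1, at 5.10 FPKM, came near the DN1d libraries (log2 difference -6.29 ± 1.12, adjusted p = 0.0127, limma, and 0.116 without DN1d 2). Gm10169, a pseudogene in GENCODE, was at 0.01 and 0.113 FPKM in DN1d, against 16 to 51.1 FPKM with a median of 26.7 in the others (log2 difference -4.81 ± 0.79, adjusted p = 0.0077, limma). Sri, the calcium-binding protein sorcin, was at 1.59 and 0.355 FPKM in DN1d, against a median of 34.1 and a highest value of 205 FPKM in the others. It overlapped with DN1e, whose 3 libraries were at 0.697 FPKM or less, and all 13 libraries of the remaining populations were at 18.95 FPKM or more (log2 difference -4.22 ± 0.77, adjusted p = 0.0153, limma, and 0.124 without DN1d 2). Gm10169 and Sri fall outside the rule for named genes and were added once their values were known.

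Rps3, a ribosomal protein gene from the list of genes that every cell uses, was at 112 and 85.6 FPKM in DN1d, against a median of 0.0148 FPKM in the others, which overlapped through DN4 3 at 157 FPKM (log2 difference 6.14 ± 1.27, adjusted p = 0.0385, limma). The other 15 libraries were at 0.284 FPKM or less, for a gene that all cells express, and the call was lost in 19 of 26 alternatives, among them without either DN1d library (adjusted p = 0.139 without DN1d 1 and 0.119 without DN1d 2). Of the 21 tested genes that every cell uses, 1 was higher and 0 were lower, against 0.473% higher and 0.0122% lower over all genes. Their median difference was -0.50, against -0.25 over all genes. Ribosomal protein genes have many near-identical processed copies, so the levels of Rps3, Rpl27 and Rpl9-ps1 are uncertain.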

How the data were processed

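RNA from 18 sorted thymocyte libraries was amplified with NuGEN Ovation kits and sequenced on Illumina HiSeq, per the labels' protocols. The authors deposited log2 FPKM values, 1 row per gene symbol; the submitters' processing notes name Bowtie and the mouse build mm8, while the sources used here give no quantifier, annotation or normalization. The log2 values were unlogged and log2(FPKM + 1) was formed. Genes reaching 1 FPKM in 2 or more libraries, 24525 in number, entered a test by limma 3.58.1 run under R 4.3.3 (population means over all 18 libraries, trended eBayes, two-sided, Benjamini-Hochberg over all genes). DN1d was set against the equally weighted mean of the 6 other populations, called at an adjusted p under 0.05 and an absolute log2 difference of at least 1, and against each population, by the largest of the 6 p-values. The fit was checked on simulated data, drawn from a normal distribution around each gene's mean with no listed floor. The check therefore does not show that the p-values hold for genes with many floor values.

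The members, the 19 gene lists and the tests were chosen with earlier results of these data known. Named genes are the 3 markers, the called genes with the largest gaps to the 16 other libraries (up to 14 higher and 8 lower, of which 1 lower gene qualified), up to 10 called against each population, called or non-overlapping list members (up to 5 and 3 per list), gamma and delta chain segments and 15 key genes. RIKEN, Gm, LOC and clone names were passed over. Some listed genes are not reported here.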

Additional observations from a re-analysis of the deposited data

How the results depend on the processing

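Of the genes named in the text and called against the mean of the 6 populations, Trdv4, Olfr794, Chrnb1, Igkc, Ighg2b, Depdc7, C2cd4a, Fam115e, Pdc and Gm10169 kept their call in every alternative in which they were tested. Only Igkc and Gm10169 were tested in all 27, and Chrnb1 in 26. The others passed the filter through DN1d alone and were tested in 24. They dropped out without either DN1d library and with the filter of 4 libraries, so those alternatives could not challenge their calls. The count of 116 higher genes was 52 with a pseudocount of 0.1 FPKM, 26 with the values as deposited and 49 when 4 libraries had to reach 1 FPKM; leaving out single libraries gave 94 to 353. The 3 lower genes became 10 with a pseudocount of 0.1 FPKM, 15 as deposited, 9 with no filter and 5 without ImmV2 1 and DN2 1, and 3 to 7 with single libraries left out. The 21 genes higher than in each population became 3 with a pseudocount of 0.1 FPKM or as deposited, 32 with a pseudocount of 5 FPKM, 35 with no filter, 2 with the filter of 4 libraries, 0 without ImmV2 1 and DN2 1, and 2 to 83 with single libraries left out. The count lower than in each, 0, was 1 as deposited and 1 with no filter, and 0 to 1 with single libraries left out. Maf passed with a pseudocount of 5 FPKM (log2 difference 2.80) and without DN1e 3. With single libraries left out its difference ran from 3.73 to 4.21. Of the other named genes not called, Tcrg-V4 passed in 4 of 27 alternatives, Nr4a2 in 2 and Trdd1 in 1. The median difference of all genes ran from -0.449 to -0.094 over the alternatives. The causes were not tested.

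Differences turned negative for Tcrg-C as deposited (-0.53), and with 1 DN1d library left out for 5 genes, whose differences over single libraries left out ran from -3.77 to 5.62 for Tcrg-C, -2.37 to 7.70 for Tcrg-V5, -0.63 to 1.18 for Trdv2-2, -1.99 to 4.08 for Il2ra and -1.00 to 3.79 for Cd79a. Same-numbered libraries did not deviate together (48 pairs, r -0.016 to 0.017). The scatter between libraries could hide a shared origin, so pairing by number is not excluded. With the replicate block, 86 genes were higher and 2 lower than the mean, and 11 and 0 than each population. With no counts, what depth limits is unknown. Where a library was left out of a population of 2, the remaining library was assumed to vary like the others.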
